A study of Mus musculus with 10 samples.

Results

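Blood clotting and clot dissolution depend on proteins that the liver makes and secretes. The 36 genes described here cover that system and were taken by symbol from the table of gene counts: the fibrinogen chains with the fibrinogen-like Fgl1, the vitamin K dependent factors with the enzymes of the vitamin K cycle, the cofactors and the cross-linking factor, the contact system, the inhibitors of clotting, and the genes of fibrinolysis. All 36 were found among the 55487 genes of the table, and all 36 passed the filter on low counts. The livers came from mice (strain C57B/6J, as the labels spell it) aged 22 months and kept on normal chow. The study compared 5 libraries of mice lacking Arg2, the mitochondrial arginase, in hepatocytes (LKO) with 5 libraries of littermates that carry floxed Arg2 alleles (Flox), housed together. The driver of the recombinase is not given in the sources used here.

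In clotting, tissue factor with factor VII, or the contact system of factors XII and XI, prekallikrein and kininogen, starts a chain of proteases that ends with thrombin, which turns soluble fibrinogen into fibrin. Hepatocytes make most of these proteins, and several need vitamin K to carboxylate their glutamate residues before they can bind membranes. Antithrombin, heparin cofactor II and the protein C and protein Z pathways hold the chain in check, and plasmin dissolves the clot. Fibrinogen is also an acute phase protein, which hepatocytes make in larger amounts during inflammation.

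Total counts ranged from 43331354 to 53891438 in LKO and from 44926666 to 54951415 in Flox. The 36 genes took 2.66% to 3.52% of them in LKO and 2.57% to 6.08% in Flox. Arg2 itself had 0, 0, 0, 4 and 6 counts in LKO and 0, 4, 0, 5 and 0 counts in Flox, in the order of the column numbers, so these counts do not check the deletion. Albumin (Alb), the defining product of hepatocytes, took 9.79% to 12.1% of counts in LKO and 3.60% to 9.55% in Flox. The serum amyloid genes Saa1 and Saa2, the strongest acute phase products of mouse liver, set 3 libraries apart. Their share of counts was 0.00371% to 0.0803% in LKO. In Flox it was 1.72%, 3.43% and 0.394% in libraries 2, 3 and 4, and 0.00970% and 0.00787% in libraries 1 and 5. All 19 genes of a wider acute phase list, which holds none of the 36, had lower estimates in LKO (51.6% of all genes did), with a median log2 fold change of -1.52. None passed edgeR's test over all genes, and 14 had an unadjusted p under 0.05 (7.51% of all genes did). Their summed level was 12243 to 29289 CPM (counts scaled to a common library total with TMM factors) in LKO and 12563 to 117149 CPM in Flox. The hepatocyte markers, most of whose sum is Alb, came to 130201 to 157189 CPM in LKO and 55483 to 123515 CPM in Flox. Without Alb the other 6 came to 26717 to 34650 (34649.5) CPM in LKO and 20237 to 30077 CPM in Flox, ranges that overlap. All 7 had higher estimates in LKO, and 0 passed edgeR's test over all genes. An unadjusted p under 0.05 was found for 2 of them, Alb and Tdo2 (7.51% of all genes). Of the 7, only Alb did not overlap between the groups (0.906% of all genes did not). Other markers summed to 147 to 208 CPM in LKO and 104 to 234 CPM in Flox for stellate cells and fibroblasts, and 27.7 to 40.1 CPM in LKO and 30.0 to 41.6 CPM in Flox for cholangiocytes. In bulk tissue, fewer cells of a type and less RNA per cell cannot be told apart.

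The fibrinogen chain genes are the members with the highest counts, and they lie together on chromosome 3. In GRCm38 coordinates Fgg spans 83007724 to 83015049 and Fga 83026076 to 83033627, both on the plus strand, and Fgb spans 83040141 to 83049863 on the minus strand. Fgg and Fga are 11026 bases apart and Fga and Fgb 6513. The 250 bases before each start site are shown because the 3 genes shared their highest libraries, Flox 2, 3 and 4. They are given 5′ to 3′ from the RefSeq promoters of GRCm38.p6, whose start of Fga lies inside the GENCODE span. Capitals mark CTGGGA, the hexamer known from interleukin response elements of rat fibrinogen genes, and GTTAAT, part of the site of hepatocyte nuclear factor 1. Both were searched on either strand, their reverse complements being TCCCAG and ATTAAC, and they do not overlap in these 3 windows.
Fga (chr3:83025903-83026152, plus strand): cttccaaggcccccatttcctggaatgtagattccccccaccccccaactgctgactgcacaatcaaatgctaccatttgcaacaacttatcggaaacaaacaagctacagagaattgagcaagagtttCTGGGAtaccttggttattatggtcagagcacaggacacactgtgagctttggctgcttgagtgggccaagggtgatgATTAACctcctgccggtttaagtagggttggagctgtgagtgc
Fgb (chr3:83049864-83050113, minus strand): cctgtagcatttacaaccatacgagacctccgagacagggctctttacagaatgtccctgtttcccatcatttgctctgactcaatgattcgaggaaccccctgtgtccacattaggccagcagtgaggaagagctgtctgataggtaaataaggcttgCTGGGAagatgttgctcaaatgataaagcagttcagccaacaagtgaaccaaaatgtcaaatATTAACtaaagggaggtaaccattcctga
Fgg (chr3:83007474-83007723, plus strand): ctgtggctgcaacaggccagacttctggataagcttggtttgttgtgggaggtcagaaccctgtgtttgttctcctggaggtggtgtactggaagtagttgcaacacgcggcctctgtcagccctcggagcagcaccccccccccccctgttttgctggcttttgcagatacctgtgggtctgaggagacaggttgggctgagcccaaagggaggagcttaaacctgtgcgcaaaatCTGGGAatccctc
CTGGGA began 121 bases before the start site in Fga, 91 in Fgb and 13 in Fgg. GTTAAT, on the opposite strand, began 43 bases before it in Fga and 29 in Fgb, and these letters were not in the Fgg window. Of the 27 members with a promoter in the RefSeq table, 10 held CTGGGA and 4 held GTTAAT in these 250 bases. Counted in the same way, 29.8% of all 27025 genes with a promoter in the table held CTGGGA and 7.49% held GTTAAT; per window the shares were 27.0% and 6.43% of 32851. These are matches of letters only.

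The 36 genes differed widely in level. Divided by the length of the principal transcript, the fibrinogen chains had the highest means. Fga was at 1748 ± 335 CPM per kb in LKO and 3225 ± 1941 in Flox, Fgg at 1732 ± 365 in LKO and 2910.1 ± 1563 in Flox, and Fgb at 1541 ± 325 in LKO and 2530 ± 1336 in Flox (SD, n = 5 each). The order among the chains lay within their spread. Kininogen (Kng1, 1509 ± 113 in LKO and 1578 ± 269 in Flox), prothrombin (F2, 1064 ± 73.6 in LKO and 1054 ± 34.6 in Flox) and plasminogen (Plg, 819 ± 73.6 in LKO and 834 ± 94.4 in Flox) followed in LKO. The LKO mean of Kng1 lay within the LKO spread of Fgb. In Flox, Fgl1 (416 ± 155 CPM per kb in LKO and 1131 ± 839 in Flox) had a mean above those of F2 and Plg, with a spread that covers both. The lowest was F13a1, at 0.103 ± 0.0850 CPM per kb in LKO and 0.117 ± 0.0767 in Flox. At the low end were 10 genes with a mean under 10 CPM in both groups: Vkorc1, F3, F8, Vwf, F13a1, Tfpi, Thbd, Plat, Plau and Plaur. Several of these are known as products of endothelial cells or macrophages rather than hepatocytes. Vkorc1, and Klkb1 among the more abundant genes, each share exon bases with another gene model on the same strand, so their levels are uncertain.

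**Figure D1:**
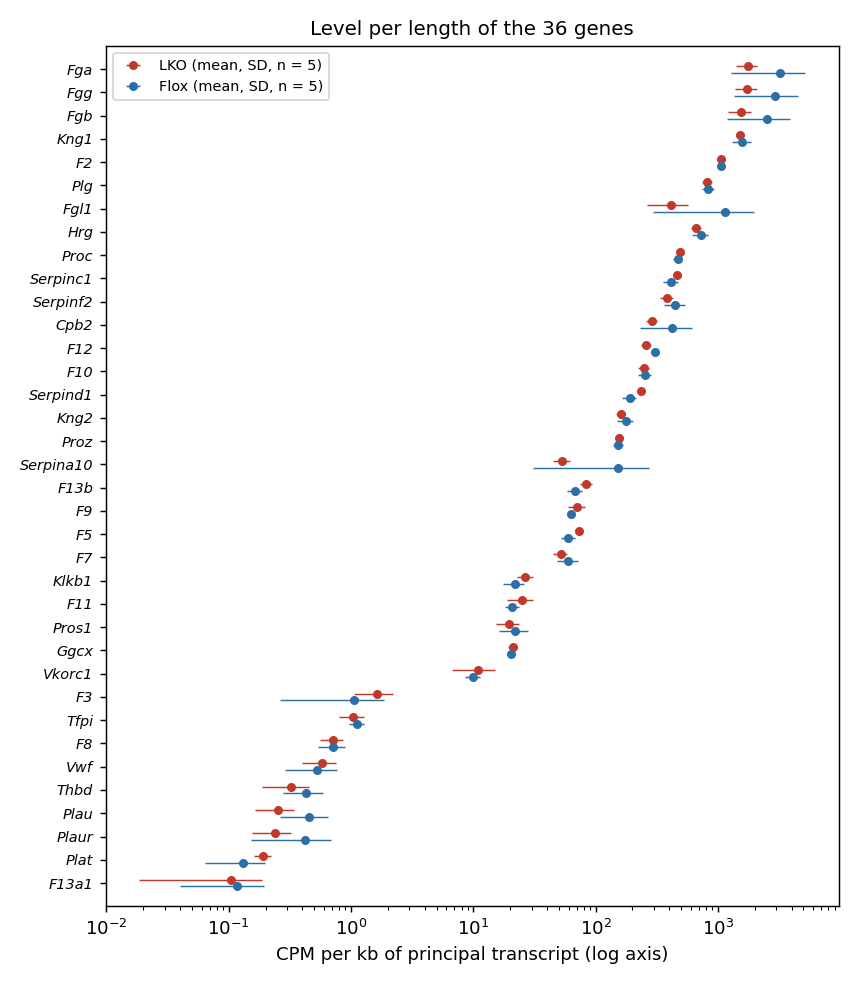
Mean level of each of the 36 genes in CPM per kb of principal transcript (log axis), LKO in red above Flox in blue, with the SD over 5 libraries as a bar. The fibrinogen chains stand at the top and F13a1 at the bottom, and the widest Flox bars among the abundant genes belong to the fibrinogen chains, Fgl1, Serpina10 and Cpb2.

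In the comparison of LKO with Flox livers, none of the 36 genes passed. The fibrinogen genes, Serpina10 and the fibrinolysis inhibitor Cpb2 had the larger negative estimates among hepatocyte products, but their high values lay in Flox libraries 2, 3 and 4 whereas Flox 1 lay within the LKO range for each and Flox 5 within it or below it. The vitamin K dependent factors were nearly level between the groups. With edgeR (quasi-likelihood, Benjamini-Hochberg adjustment over 15894 genes), 0 of 36 members had an adjusted p under 0.05 (0% of all genes did), and the smallest was 0.652. At an unadjusted p under 0.05 there were 8 members, against 7.51% of all genes: 5 on the lower side (Fga, Fgl1, F12, Serpina10 and Plau, against 4.33% of all genes) and 3 on the higher side (F5, F13b and Serpind1, against 3.17%). Of these 8, 7 had their highest or lowest value in Flox 2 or 3. The 8 were picked by p from the same values, and this share was not counted over all genes. Among all 36 members, Flox 2 was highest for 5 and lowest for 4, and Flox 3 highest for 8 and lowest for 7. Both the number of members with an unadjusted p under 0.05 and the share of all genes changed when 1 library was left out. There were 3 members without Flox 2, Flox 3, LKO 3 or LKO 4 (6.31%, 3.55%, 5.59% and 4.57% of all genes). It was 4 without LKO 1 (5.90%), 5 without LKO 5 or Flox 4 (7.84% and 6.89%) and 6 without LKO 2 (7.30%). Without Flox 1 it was 10 (10.4%), and without Flox 5 it was 14 (11.7%). Without Flox 2 and 3 together it was 1 member (F12), 2.78% of the 36 against 3.12% of all genes. Flox 2 and 3 were chosen with earlier results known. Where they are a gene's highest pair, leaving them out by itself raises the estimate, here and in what follows. DESeq2 likewise called 0 members, with 11 at an unadjusted p under 0.05 (8.69% of all genes), and limma-voom called 0, with 5 (6.42% of all genes). The estimate was lower in LKO for 21 of 36 members (51.6% of all genes), with a median log2 fold change of -0.05 against -0.01 over all genes. The groups did not overlap for 1 member, Serpind1 (0.906% of all genes did not).

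**Figure D2:**
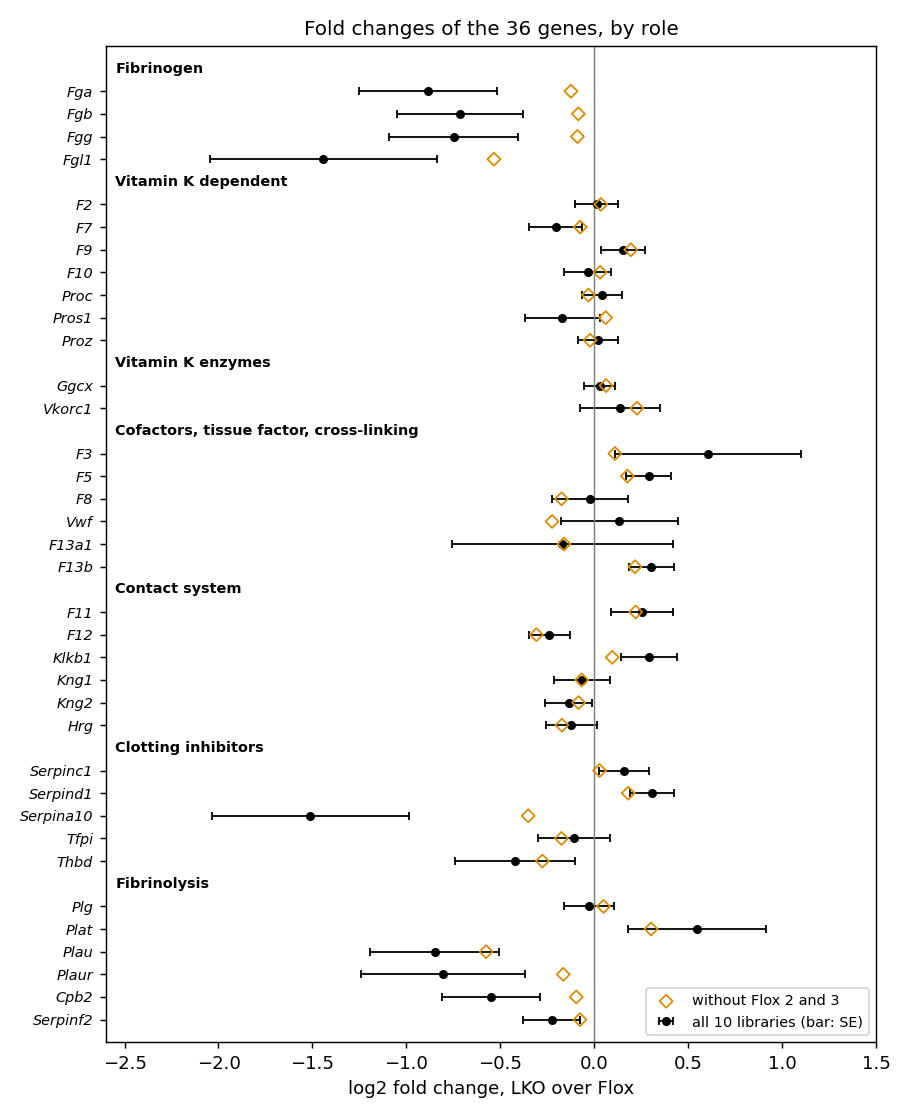
Log2 fold change of LKO over Flox for the 36 genes by role, from edgeR with all 10 libraries (black points, bars are the SE) and without Flox 2 and 3 (open diamonds). The fibrinogen genes, Serpina10, Cpb2 and Plaur lie far to the left with all libraries and much nearer to 0 without these libraries, while the vitamin K dependent factors stay near 0 in both. For each of the genes named on the left, Flox 2 and 3 are the highest pair of libraries. They were chosen with earlier results known, so this shift is built in.

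Fibrinogen is built of paired alpha, beta and gamma chains, encoded by Fga, Fgb and Fgg. Fga was at 3939.6, 5479.8, 5126, 4702 and 3358 CPM in LKO 1 to 5, and at 4729, 15408, 11554.5, 6648 and 3377 CPM in Flox 1 to 5. Fgb was at 4929.5, 7415, 6604, 6062 and 4352.5 CPM in LKO and at 5655, 16545, 13002, 8609 and 4377 CPM in Flox. Fgg was at 2479.7, 3620.4, 3188, 3275 and 2115 CPM in LKO and at 2923, 8309, 7002, 4323 and 2106 CPM in Flox. For all 3 genes Flox 2 was highest, followed by Flox 3 and Flox 4, and Flox 1 and 5 lay within or just below the LKO range. The log2 fold change was -0.88 ± 0.37 (SE) for Fga, -0.71 ± 0.33 for Fgb and -0.75 ± 0.34 for Fgg, and the adjusted p from edgeR was 0.652 for all 3. Without Flox 2 alone these were -0.54, -0.43 and -0.48, and without Flox 2 and 3 they were -0.12, -0.08 and -0.09. Saa1 and Saa2 were highest in the same 3 Flox libraries, with Flox 3 above Flox 2. Flox 4 stayed in the estimates without Flox 2 and 3. The part of Saa1 and Saa2 in the difference was not tested.

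The 3 chains kept close to a fixed ratio while their level varied. Together they took 0.975% to 1.66% of all counts in LKO and 1.01% to 4.09% in Flox. Counts of Fgg per count of Fgb were 0.483 to 0.540 in LKO and 0.481 to 0.538 in Flox, a span of 1.12-fold over the 10 libraries. Counts of Fga per count of Fgb were 0.739 to 0.799 in LKO and 0.771 to 0.931 in Flox, a 1.26-fold span. Flox 2 (0.931), Flox 3 (0.889) and Flox 1 (0.836) lay above the LKO range, and Flox 4 (0.772) and Flox 5 (0.771) within it. Within Flox alone, Fga spanned 4.56-fold in CPM.

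Fgl1, a fibrinogen-related protein secreted by hepatocytes (chromosome 8, 41191434 to 41215156), varied more widely than the chains. It was at 321, 767, 415, 399 and 429 CPM in LKO and at 388, 2056, 2263, 1416 and 209 CPM in Flox. Flox 2, 3 and 4 lay above all LKO libraries, and Flox 5 below them. The Flox range was 10.8-fold, the widest of any member in that group, and the log2 fold change of -1.44 ± 0.60 (SE) had an adjusted p of 0.652 in the edgeR test. It was -0.53 without Flox 2 and 3.

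**Figure D3:**
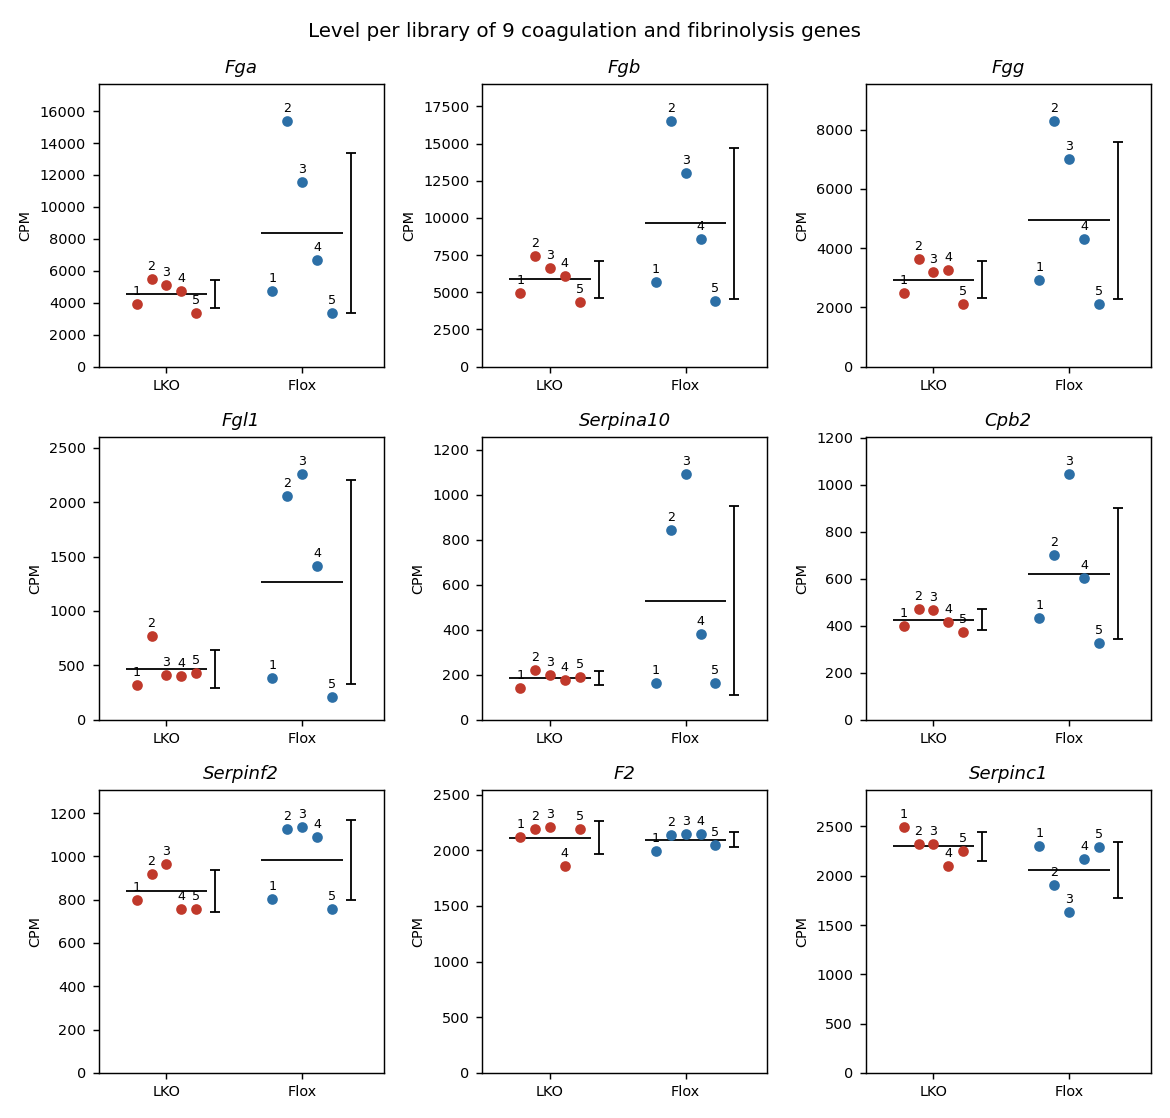
CPM of 9 members in each library (points, labelled by column number), LKO in red to the left of Flox in blue; horizontal lines are group means and the bars beside them the SD (n = 5). Flox 2, 3 and 4 stand above the other libraries for Fga, Fgb, Fgg, Fgl1, Serpina10, Cpb2 and Serpinf2, whereas F2 is nearly level over the 10 libraries and Serpinc1 is lowest in Flox 3.

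The vitamin K dependent proteins lay close to level between LKO and Flox. Of the 7, 3 had lower and 4 higher estimates in LKO, none had an unadjusted p under 0.05, and the median log2 fold change was 0.01. Prothrombin (F2) was at 2119, 2189, 2210.0, 1860.3 and 2193 CPM in LKO and at 1997, 2136, 2150 (2149.7), 2143 and 2046 CPM in Flox, the narrowest span of all 36 members at 1.19-fold. Its log2 fold change was 0.01 ± 0.11 (SE). The other procoagulant proteases were factor VII (F7, 96.2 ± 12.4 CPM in LKO and 111 ± 21.3 in Flox), factor IX (F9, 193 ± 29.9 in LKO and 173 ± 12.6 in Flox) and factor X (F10, 619 ± 63.8 in LKO and 635 ± 74.3 in Flox; SD, n = 5 each). F7 was 128 to 130.2 CPM in Flox 2 and 4 and 121 CPM in Flox 3, above the 81.5 to 115 CPM of LKO, and 87.4 to 88.6 CPM in Flox 1 and 5.

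The anticoagulant members of this group differed as little. Protein C (Proc), which inactivates factors V and VIII, was at 763 ± 34.5 CPM in LKO and 742 ± 60.8 in Flox. Its cofactor protein S (Pros1) was at 64.6 ± 14.1 CPM in LKO and 72.7 ± 19.3 in Flox, and protein Z (Proz), the cofactor of Serpina10, at 521 ± 40.1 in LKO and 514 ± 46.2 in Flox (SD, n = 5 each). The log2 fold changes of the 7 ranged from -0.21 ± 0.14 (SE) for F7 to 0.16 ± 0.12 for F9, with adjusted p from 0.691 to 0.977 by edgeR. Those of F2, F10, Proc, Pros1 and Proz changed sign under at least 1 of the alternatives, library totals among them for F2 and Proz.

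The enzymes that serve these proteins had means close to each other in both groups. The gamma-glutamyl carboxylase Ggcx was at 61.2 ± 4.91 CPM in LKO and 59.99 ± 3.33 in Flox, and Vkorc1, the vitamin K epoxide reductase that warfarin blocks, at 8.14 ± 3.12 in LKO and 7.40 ± 1.03 in Flox (SD, n = 5 each). The LKO spread of Vkorc1 came from column 4, at 13.7 CPM against 6.45 to 7.16 CPM in the other LKO libraries. The log2 fold change of Vkorc1, 0.14 ± 0.21 (SE), was -0.13 without that library. The overlapping gene model Gm21974 on the same strand, with 0 counts, shares 401 of the exon bases of Vkorc1. The level of Vkorc1 is therefore uncertain.

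Among cofactors and the cross-linking factor, the hepatocyte products F5 and F13b leaned to the higher side in LKO. Factor V (F5, chromosome 1, 164151838 to 164220277), the cofactor of factor X, was at 499.7, 497, 575, 582 and 556 CPM in LKO and at 452, 411, 368, 462 and 525 CPM in Flox. The groups overlapped through Flox 5, and Flox 2 and 3 were lowest. The B subunit of factor XIII (F13b, chromosome 1, 139501702 to 139523752), which carries the cross-linking enzyme in plasma, was at 215, 215, 174, 219 and 173.5 CPM in LKO and at 197, 156, 136, 153 and 164 CPM in Flox. Flox 1 lay within the LKO range and the other Flox libraries below it. Log2 fold changes were 0.29 ± 0.12 (SE) for F5 and 0.30 ± 0.12 for F13b, with adjusted p of 0.652 each in the edgeR test, and 0.18 and 0.22 without Flox 2 and 3.

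The other members of that group had few counts and wide spreads. Tissue factor (F3), which starts clotting, was at 1.91, 3.15, 2.83, 2.53 and 4.75 CPM in LKO and at 1.401, 1.09, 0.436, 2.89 and 4.13 CPM in Flox, with the lowest values in Flox 1, 2 and 3. Factor VIII (F8), which liver sinusoidal endothelial cells make, was at 6.90 ± 1.44 CPM in LKO and 7.01 ± 1.75 in Flox, and its carrier von Willebrand factor (Vwf) at 5.07 ± 1.59 in LKO and 4.62 ± 2.09 in Flox (SD, n = 5 each). The A subunit of factor XIII (F13a1), a macrophage and platelet product, had 4 to 46 counts in LKO and 10 to 48 in Flox. Log2 fold changes were 0.60 ± 0.49 (SE) for F3, -0.02 ± 0.20 for F8, 0.13 ± 0.31 for Vwf and -0.17 ± 0.59 for F13a1, and the sign of the last 3 turned under several alternatives. That of F3 was 0.39 without LKO 5, 0.35 without Flox 3, 1.049 without Flox 5 and 0.11 without Flox 2 and 3. The 10 endothelial markers summed to 126 to 187 CPM in LKO and 129 to 207 CPM in Flox, and the 6 platelet markers to 3.10 to 6.75 CPM in LKO and 2.83 to 5.60 CPM in Flox. None of these markers was at 0 counts throughout.

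The contact system held genes on both sides. Factor XII (F12, chromosome 13, 55417958 to 55426793), the protease that contact with a surface activates, was at 539, 501, 491, 441 and 560 (559.6) CPM in LKO and at 633, 564, 545, 616 and 631 CPM in Flox. The groups overlapped narrowly, through LKO 5 and Flox 3. Its log2 fold change was -0.24 ± 0.11 (SE; adjusted p = 0.652 by edgeR) and -0.31 without Flox 2 and 3, where it was the 1 member with an unadjusted p under 0.05. Factor XI (F11) was at 55.5 ± 13.7 CPM in LKO and 46.6 ± 6.03 in Flox, and prekallikrein (Klkb1), its neighbour on chromosome 8 at a distance of 4657 bases, at 139.9 ± 19.96 in LKO and 114 ± 22.7 in Flox (SD, n = 5 each). Klkb1 was at 90.1 and 88.9 CPM in Flox 2 and 3, below the 125 to 174 CPM of LKO and the 130.4 to 131 CPM of the other Flox libraries. The overlapping gene model Gm45753 on the same strand, with 0 counts, shares 2267 of the exon bases of Klkb1. The level of Klkb1 is therefore uncertain.

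The remaining contact genes lie side by side on chromosome 16, and each had a lower estimate in LKO that did not pass; that of Kng1 was 0.03 without Flox 4. Kng1, the kininogen from which bradykinin is cut, was at 2756 ± 206 CPM in LKO and 2883 ± 492 in Flox, and its close copy Kng2 at 369 ± 29.3 in LKO and 405 ± 60.8 in Flox. Reads that both copies share may be lost or split between them. Histidine-rich glycoprotein (Hrg), which binds heparin and plasminogen, was at 1151 ± 102 CPM in LKO and 1254 ± 192 in Flox (SD, n = 5 each). Log2 fold changes were -0.06 ± 0.15 (SE), -0.14 ± 0.12 and -0.12 ± 0.14 for Kng1, Kng2 and Hrg, with adjusted p of 0.910, 0.758 and 0.799 by edgeR. All 3 were highest in Flox 4 and lowest in Flox 5.

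Of the 5 inhibitors of clotting, 3 had lower and 2 higher estimates in LKO. Antithrombin (Serpinc1), the main inhibitor of thrombin and factor X, was at 2496, 2321, 2320 (2319.8), 2095 and 2255 CPM in LKO and at 2299.5, 1907, 1633, 2167 and 2293 CPM in Flox. Its exons overlap 2942 bases of Zbtb37 on the other strand. Heparin cofactor II (Serpind1, chromosome 16, 17331371 to 17343575), a thrombin inhibitor, was at 511, 509, 578, 484 and 486 CPM in LKO and at 439 (438.7), 344, 375, 458 and 462 CPM in Flox, so that every LKO library lay above every Flox library. Its log2 fold change of 0.31 ± 0.12 (SE) had an unadjusted p of 0.0227 and an adjusted p of 0.652 by edgeR. Without Flox 2 and 3 it was 0.18 (unadjusted p = 0.125 by edgeR).

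Serpina10 (chromosome 12, 103614786 to 103631444), the protein Z dependent inhibitor of factor X, had the smallest p of the 36 members and followed the fibrinogen genes. It was at 141, 222, 198, 177 and 189 CPM in LKO and at 163, 842, 1094, 379.6 and 164 CPM in Flox. Flox 2, 3 and 4 lay far above the LKO range, and Flox 1 and 5 lay within it. The log2 fold change was -1.51 ± 0.52 (SE; unadjusted p = 0.0166, adjusted p = 0.652 by edgeR) and -0.35 without Flox 2 and 3. Protein Z itself was at 472, 510.3 and 576 CPM in the 3 Flox libraries with high Serpina10, and at 468 to 541 CPM in Flox 1 and 5. The inhibitors known from endothelial cells had few counts. Tissue factor pathway inhibitor (Tfpi) was at 2.11 ± 0.489 CPM in LKO and 2.27 ± 0.321 in Flox, and thrombomodulin (Thbd) at 1.19 ± 0.499 in LKO and 1.603 ± 0.575 in Flox (SD, n = 5 each).

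Of the 6 fibrinolysis genes, 5 had lower estimates in LKO, with a median log2 fold change of -0.39 that was -0.09 without Flox 2 and 3. Plasminogen (Plg), the precursor of plasmin, was level at 2258 ± 203 CPM in LKO and 2300.5 ± 260 (SD, n = 5 each) in Flox, with a log2 fold change of -0.03 ± 0.13 (SE) whose sign turned under 4 alternatives. The inhibitors of fibrinolysis varied more. Cpb2 (chromosome 14, 75242287 to 75283555), a carboxypeptidase that trims fibrin so that plasmin binds less, was at 397, 471, 468, 416 and 371 CPM in LKO and at 432, 701, 1046.5, 602 and 325 CPM in Flox. Flox 2, 3 and 4 exceeded all LKO libraries. Alpha-2-antiplasmin (Serpinf2), the plasmin inhibitor, was at 799.9, 918, 966, 758 and 755 CPM in LKO and at 804, 1128, 1136, 1090 (1089.9) and 756 CPM in Flox, again with Flox 2, 3 and 4 on top. Log2 fold changes were -0.55 ± 0.26 (SE; adjusted p = 0.652) for Cpb2 and -0.23 ± 0.15 (adjusted p = 0.685) for Serpinf2 by edgeR, and -0.10 and -0.08 without Flox 2 and 3. That of Cpb2 was -0.28 without Flox 3 alone.

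The activators of plasminogen and the urokinase receptor had few counts. Tissue activator (Plat) had 16 to 32 counts per library in LKO and 6 to 32 in Flox. Urokinase (Plau, chromosome 14, 20836660 to 20843385) had 12, 30, 27, 28 and 44 counts in LKO and 34, 43, 84, 60 and 51 in Flox, and its receptor Plaur had 9, 19, 20, 22 and 14 counts in LKO and 22, 32, 60, 30 and 14 in Flox. Flox 3 was highest for both. Log2 fold changes were -0.85 ± 0.34 (SE) for Plau, -0.80 ± 0.44 for Plaur and 0.55 ± 0.37 for Plat, with adjusted p of 0.652, 0.656 and 0.685 by edgeR. That of Plaur was -0.36 without Flox 3, and that of Plat 0.34 without Flox 2 and 0.86 without Flox 5. Plau and Plaur are known from macrophages and neutrophils. The 6 monocyte and neutrophil markers summed to 2.48 to 20.6 CPM in LKO and 3.07 to 25.8 CPM in Flox, highest in Flox 3. The 4 that were tested all had lower estimates in LKO (51.6% of all genes did), from -1.51 for Ccr2 to -0.14 for S100a8. The 6 Kupffer cell markers summed to 41.3 to 391 CPM in LKO and 60.9 to 425 CPM in Flox, and all 6 also had lower estimates in LKO. No marker of either list was at 0 in all libraries. Their part in Plau and Plaur was not tested.

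Across roles, the members ranked the libraries in opposite ways. In 8 members Flox 2 and 3 were the highest pair of the 10 libraries (Fga, Fgb, Fgg, Fgl1, Serpina10, Plaur, Cpb2 and Serpinf2), which was so for 10.2% of all genes. In 7 members they were the lowest pair (Proc, F3, F5, Vwf, Klkb1, Serpinc1 and Serpind1), which was so for 10.5% of all genes. The coefficient of variation was larger in Flox than in LKO for 27 of 36 members, against 59.3% of all genes.

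**Figure D4:**
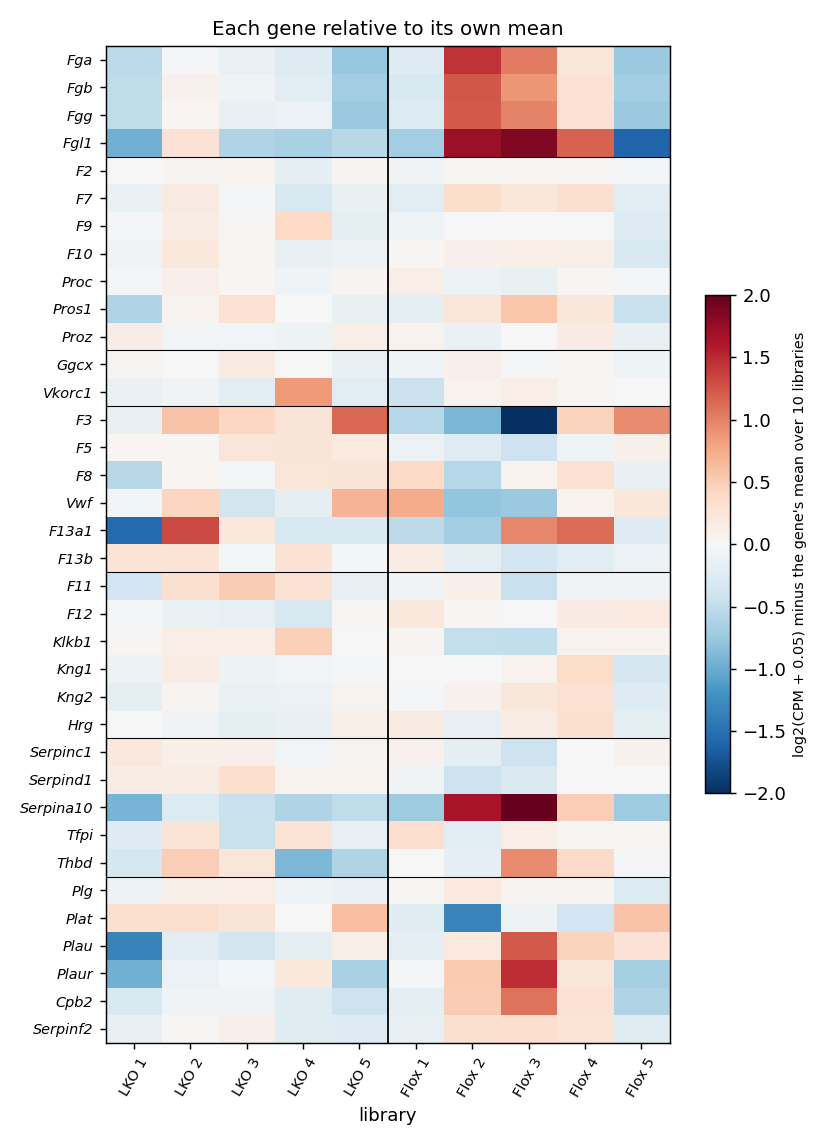
Each gene's log2(CPM + 0.05) minus its own mean over the 10 libraries, LKO columns left of the black line and Flox columns right of it, in the order of roles used in the text; colours are capped at 2 units either way. Flox 2, 3 and 4 are red for the fibrinogen genes, Serpina10, Cpb2 and Serpinf2, and no row separates the 5 LKO from the 5 Flox columns except Serpind1.

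Of 40 other genes of clotting, platelets and fibrinolysis, 29 were tested, of which 16 had lower and 13 higher estimates in LKO, and 0 passed edgeR's test over all genes (3 had an unadjusted p under 0.05, against 7.51% of all genes). The smallest p belonged to Gas6, a vitamin K dependent ligand of the TAM receptors related to protein S. It was at 58.4, 81.1, 61.7, 44.1 and 96.0 CPM in LKO and at 78.8, 186, 347, 134 and 67.0 CPM in Flox, again highest in Flox 2, 3 and 4. The plasminogen receptor Plgrkt was at 2.01 ± 0.459 CPM in LKO and 2.92 ± 0.823 in Flox, and Lrp1, which clears protease complexes including that of tissue activator, at 880.0 ± 105 in LKO and 1238 ± 442 in Flox. Fgl2, a membrane prothrombinase of macrophages and endothelium, was at 2.34 ± 1.22 CPM in LKO and 4.88 ± 3.37 in Flox (SD, n = 5 each). Lrp1 was at 1739, 1644 and 1182 CPM in Flox 2, 3 and 4, and within the LKO range in Flox 1 and 5. For Plgrkt and Fgl2, only Flox 3 (3.82 and 10.4 CPM) and Flox 4 (3.80 and 5.88 CPM) lay above the LKO range. Log2 fold changes of Gas6, Plgrkt, Lrp1 and Fgl2 were -1.25 ± 0.44 (SE), -0.54 ± 0.23, -0.49 ± 0.22 and -1.06 ± 0.48, each with an adjusted p of 0.652 by edgeR.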

How the data were processed

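RNA of mouse liver was sequenced in 10 libraries, 5 LKO and 5 Flox, with oligo-dT selection named in the labels' protocols. The authors deposited a table of raw read counts, 1 line per Ensembl ID, per the file headers. Per the submitters' processing notes the build was GRCm38, and they list featureCounts 1.4.6-p5, Subread, STAR 2.5.1a and bcl2fastq. Whether counting used strand, and how it treated multi-mapping reads, is not given in the sources used here, so overlapping genes and close copies are uncertain. Flox columns match the Flox titles. LKO columns are numbered 1 to 5 and the LKO titles 6 to 10, so an LKO column is used as a member of its group and called by its column number. No label says that each library is a separate mouse, so p-values measure only the spread between these libraries.

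After 287 repeat lines of gene IDs were dropped, 55487 genes remained. Genes were kept with edgeR's filterByExpr (15894 left), scaled by TMM (factors 0.963 to 1.04) and tested with edgeR 4.0.16 (quasi-likelihood F test, robust, no covariate, R 4.3.3), with Benjamini-Hochberg adjustment over all genes, a threshold of 0.05 and two-sided p. The SE was derived from the F statistic. DESeq2 1.42.0, limma-voom 3.58.1 with quality weights, other scalings, no filter and left-out libraries were alternatives. Over the 45 pairs of libraries the mean chi-square per gene (1 degree of freedom, genes with 20 or more counts) was 41.2 to 768, above sampling noise in each. A count of 0 allows up to 3 counts, 0.0546 to 0.0692 CPM per library, for counting error only. On simulated counts of this comparison (15899 genes tested), edgeR recovered 5 of 48 genes changed 1.5-fold, 29 of 50 changed 2-fold, 37 of 50 changed 3-fold and 47 of 50 changed 4-fold. It also called 7 unchanged genes. The simulation drew each gene independently, with 1 dispersion per gene for both groups. It holds no swing shared by Flox 2, 3 and 4, so these rates need not apply to the real libraries.

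Levels per length divide CPM by the longest principal transcript of GENCODE M21, whose ends may not be those used in these livers. All 36 members are named. Of the list of 40 other pathway genes, the 4 with the smallest p are named, since none passed. The members, lists and left-out libraries were chosen with earlier results of these data known. Of the hepatocyte list 1 symbol was not found.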

Additional observations from a re-analysis of the deposited data

Results flagged for a closer look

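Each member was screened in both groups for a library far from the other 4, by Dixon's ratio of its gap to the group's range. Chance flags about 1 in 20 groups, and 7 of 72 were flagged, 6 of them in LKO.

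LKO column 4 stood apart for 3 members: Vkorc1 at 13.7 CPM (the others at 6.45 to 7.16), F2 at 1860.3 CPM (the others at 2119 to 2210.0) and Klkb1 at 174 CPM (the others at 125 to 137). LKO column 2 stood apart for Fgl1 at 767 CPM (the others at 321 to 429) and Kng1 at 3114 CPM (the others at 2619 to 2740.4). This column had the highest Saa1 and Saa2 share in LKO, at 0.0803% of counts. LKO column 3 stood apart for Serpind1 at 578 CPM (the others at 484 to 511), and Flox 5 for F10 at 506 CPM (the others at 636 to 686). The wide Flox spread of the fibrinogen chains was not flagged, since Flox 2, 3 and 4 fill the range.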

How the results depend on the processing

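Under every alternative run, 0 members passed, and edgeR and limma-voom called 0 genes of all. DESeq2 called 11 genes of all and 0 of the 28 members it adjusted (smallest adjusted p = 0.325). It adjusted over 8184 genes after its own filter. The adjusted p of members ranged from 0.325 to 0.999 over the alternatives. Leaving out 1 library at a time, 18 to 22 members were lower in LKO, and the median log2 fold change was -0.94 to -0.48 for the fibrinogen chains, -0.01 to 0.05 for the vitamin K dependent genes and -0.51 to -0.22 for fibrinolysis. Without Flox 2 and 3 these medians were -0.09, 0.03 and -0.09, and 6 members turned sign. With limma-voom and quality weights they were -0.42, 0.01 and -0.24, with -0.80 for Fgl1 and -0.90 for Serpina10. The cause was not tested. With library totals in place of TMM, 24 members were lower, and F2, Proz and Ggcx turned sign. The titles of the groups share no replicate number. With the column number as a replicate block, 0 genes of all passed and 10 members had an unadjusted p under 0.05 (9.66% of all genes). Same-numbered columns correlated at 0.0736 to 0.354 in their deviations from the group means, and 2 of 5 LKO columns correlated best with their own number, so the numbers were not taken as pairs. Depth limits F13a1, Plat, Plau and Plaur, with means near or under 1 CPM.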

Other observations

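Ratios were also taken between neighbouring members of the chromosome 8 cluster. F7, F10 and Proz lie in that order on the plus strand between 13026034 and 13076026, with gaps of 1498 and 4237 bases. Counts of F7 per count of Proz were 0.164 to 0.232 in LKO and 0.164 to 0.276 in Flox, with the highest ratio in Flox 2. Counts of F7 per count of F10 were 0.145 to 0.159 in LKO and 0.139 to 0.194 in Flox. Flox 2 (0.194), Flox 4 (0.189), Flox 3 (0.177) and Flox 5 (0.173) lay above the LKO range, and Flox 1 (0.139) below it. Over the 10 libraries F7 per F10 spanned 1.39-fold and F7 per Proz 1.68-fold. Counts of F10 per count of Proz were 1.04 to 1.46 in LKO and 1.08 to 1.42 in Flox.

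Ratios of inhibitors to genes of the same pathway, which no scaling alters, varied most in Flox. Counts of Cpb2 per count of Plg were 0.179 to 0.192 in LKO and, in Flox 1 to 5, 0.188, 0.270, 0.443, 0.255 and 0.173. Counts of Serpina10 per count of Serpinc1 were 0.0565 to 0.0958 in LKO and, in Flox 1 to 5, 0.0709, 0.441, 0.670, 0.175 and 0.0717, an 11.9-fold span over the 10 libraries. Serpinc1 was itself lowest in Flox 2 and 3, at 1907 and 1633 CPM, which raises the ratio there. Flox 1 and 5 lay within or just below the LKO range in both ratios. Counts of Serpinf2 per count of Plg varied less, at 0.350 to 0.388 in LKO and 0.350 to 0.481 in Flox.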
